A study of Mus musculus with 23 samples.

Results

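A630020A06, Acer2, Vsig2 and Echdc3 are 4 of the 24411 gene symbols in a count table of RNA from mouse cortical astrocytes. They were chosen because the study named them for the astrocyte knockout of Aldh7a1 on the control diet, so they were chosen by the counts of the ConAstro and cKOAstro libraries described below, and their levels on that diet are given as a description and without a test. The question examined was whether each difference recurred in mice on a diet with sulforaphane (SFN), in libraries that did not take part in the choice.

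Astrocytes were sorted with magnetic beads from the cortex of male mice at P70, and RNA was sequenced from 23 mice. Every mouse was Aldh7a1-Flox/Flox and received 4-hydroxytamoxifen at P3 to P4. The control group ConAstro (4 libraries) carried no Cre and was fed the control diet, and the knockout group cKOAstro (7 libraries) was Slc1a3-CreER/+ on the same diet. SFN-fed ConAstro (5 libraries) and SFN-fed cKOAstro (7 libraries) had the same genotypes and received SFN in the diet from P21. CreER is placed at 1 allele of Slc1a3, a glutamate transporter gene of astrocytes, so the knockout groups differ from controls in that allele, in the chromosome segment around it and in the deletion of Aldh7a1. These cannot be told apart here.

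Sphingolipids, membrane adhesion molecules and fatty acid enzymes are each represented among the 4 genes. Acer2 encodes an alkaline ceramidase of the Golgi that splits ceramide into sphingosine, the precursor of sphingosine 1-phosphate. Vsig2 encodes a membrane protein with immunoglobulin domains, Echdc3 encodes a protein with an enoyl-CoA hydratase domain, a fold used in the breakdown of fatty acids, and A630020A06 is a long non-coding RNA. SFN activates the transcription factor NRF2, which drives antioxidant and detoxification genes. CreER joins Cre to part of an estrogen receptor, whose gene is Esr1, and Esr1 counts were therefore used to read which libraries carried it, with a limit of 5 CPM. CPM is a gene's count scaled to the library total, here with the TMM factors of the 23 libraries, so that libraries of unequal depth can be set side by side.

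Esr1 stood at 16.0 to 24.8 CPM in 14 libraries and at 0.533 to 1.74 CPM in the other 9, with none near the limit. In 2 libraries this reading went against the label. The library labelled SFN-fed ConAstro replicate 1 had 19.96 CPM of Esr1, 55.7 CPM of Aldh7a1 and 2100 CPM of Slc1a3, all in the range of the knockout libraries. The library labelled SFN-fed cKOAstro replicate 2 had 0.533 CPM of Esr1, 222 CPM of Aldh7a1 and 4436 CPM of Slc1a3. Its Aldh7a1 and Slc1a3 lay in the range of the controls, and its Esr1 was the lowest of all libraries. Neither was moved to another group. Each comparison on the SFN diet was made with all labelled libraries and again without these 2, and their own values are given separately. A further library, labelled cKOAstro replicate 2, had 1541 CPM of Xist and 3 counts of the Y-linked gene Ddx3y, against its label as male. Without it the control-diet differences of the 4 genes kept their direction, with log2 values of 2.45 for A630020A06, -0.37 for Acer2, -0.70 for Vsig2 and 0.43 for Echdc3.

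Total counts ran from 46890715 to 391701247 per library. The 4 ConAstro libraries (74771451 to 84049525) were all shallower than the 7 cKOAstro libraries (107847897 to 391701247). All ConAstro library names began with 143 and none of the cKOAstro names did, so the name series and the genotype cannot be told apart on the control diet. On the SFN diet, 3 of the SFN-fed cKOAstro libraries whose Esr1 went with the label were named Astro and the remaining 3 by number. The astrocyte markers summed to 13464 to 25095 CPM across the 23 libraries, and the 10 oligodendrocyte markers summed to 22226 to 57490 CPM in the same sorted material. In such bulk samples, fewer cells of a type and less RNA per cell cannot be told apart.

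A630020A06 lies on chromosome 15 at chr15:3996039-4015858 on the plus strand (GRCm38/mm10, GENCODE M21, where it is annotated as the lincRNA Gm2093), with 3526 exonic bases in 3 exons. It starts 295 bases from the start of AW549877, which runs the other way, and 4.62 Mb from Slc1a3. The 300 bases around its start, from 250 before to 50 after (RefSeq, GRCm38.p6, chr15:3995789-3996088, plus strand), are shown because A630020A06 is the member whose level separated libraries by Esr1 on both diets. Capitals mark CCAAT, at positions -65 and -33 from the start.
A630020A06: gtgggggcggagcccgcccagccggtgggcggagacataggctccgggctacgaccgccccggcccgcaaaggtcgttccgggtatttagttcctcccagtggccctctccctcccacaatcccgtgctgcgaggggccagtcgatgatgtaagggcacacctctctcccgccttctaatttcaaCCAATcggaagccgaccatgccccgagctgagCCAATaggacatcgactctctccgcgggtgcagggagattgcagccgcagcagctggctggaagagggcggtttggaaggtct
The motifs searched, on both strands, were CCAAT, the NRF2 core TGACNNNGC, the estrogen receptor half-site AGGTCA and the full estrogen response element, which contains the half-site. CCAAT occurred in 37.4% of 32851 RefSeq promoter windows of this length, TGACNNNGC in 12.4%, AGGTCA in 16.3% and the full element in 0.0548%.

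A630020A06 was the rarest of the 4 transcripts and the one that differed most in proportion. ConAstro replicates 1 to 4 held 5, 14, 11 and 8 counts, or 0.0671, 0.190, 0.125 and 0.102 CPM. The 7 cKOAstro libraries ranged from 0.543 to 0.842 CPM, with a median of 0.652. Every knockout library was above every control, with a mean of 0.677 ± 0.0976 CPM (SD, n = 7) against 0.121 ± 0.0517 CPM (SD, n = 4) and a log2 difference of 2.47 ± 0.27 (SE). Across all genes tested on the control diet, 0.287% were higher without overlap, 3.74% had an unadjusted edgeR p under 0.05, and edgeR called 0.023% and DESeq2 0.0461%.

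On the SFN diet, A630020A06 separated the libraries by Esr1. SFN-fed ConAstro replicates 2 to 5 had 0.170, 0.311, 0.113 and 0.0779 CPM. The 6 SFN-fed cKOAstro libraries whose Esr1 went with the label ranged from 0.367 to 0.753 CPM, with replicates 1, 3, 4, 5, 6 and 7 at 0.586, 0.367, 0.753, 0.482, 0.491 and 0.391 CPM. All 6 were above all 4 controls, and 3.15% of all genes tested were higher without overlap in this comparison. The gap was narrow at its closest point, where 0.311 CPM (68 counts, 95% Poisson interval 0.242 to 0.394) faced 0.367 CPM (35 counts, 0.256 to 0.511), and these 2 counting intervals overlapped.

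The 2 libraries that went against their labels carried A630020A06 inside the range of the libraries with the same Esr1 reading. The one labelled SFN-fed ConAstro replicate 1 had 22 counts, or 0.470 CPM, which lies above all libraries with low Esr1. The one labelled SFN-fed cKOAstro replicate 2 had 13 counts, or 0.10 CPM, which lies below all libraries with high Esr1. Among the 12 libraries on the SFN diet, which did not choose the gene, the 7 with high Esr1 lay at 0.367 to 0.753 CPM and the 5 with low Esr1 at 0.0779 to 0.311 CPM. This reading by Esr1 is a description, because the shares of genes without overlap given here are for groups by label. The share of all genes that separated by Esr1 was not computed, so how unusual this separation is cannot be judged.

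In the tested comparison, A630020A06 was 1.55 ± 0.39 (SE) higher on the log2 scale in SFN-fed cKOAstro without those 2 libraries (95% interval 0.68 to 2.41), from means of 0.168 ± 0.103 CPM (SD, n = 4) and 0.512 ± 0.142 CPM (SD, n = 6). It did not pass the threshold of 0.05 (edgeR adjusted p = 0.310), in a comparison where edgeR called 0.012% of genes. Its unadjusted p ranked 63 of 16705 genes, and 14.9% of all genes had an unadjusted p under 0.05 there. DESeq2 without a filter on low counts, an alternative chosen after seeing the data, gave 1.54 and passed the threshold (DESeq2 adjusted p = 0.0352), with 0.464% of genes called. With the filter DESeq2 called 0.569% of genes and gave A630020A06 no adjusted p. The limma-voom fit called 0.018% and A630020A06 did not pass (limma adjusted p = 0.101). Including all labelled libraries, the log2 difference was 1.01 ± 0.50 (SE, 95% interval -0.06 to 2.08, edgeR adjusted p = 0.266), and 4 of 7 knockout libraries were above every control. In that comparison 0.864% of genes were higher without overlap, edgeR called 0.0%, DESeq2 2.05% (1.23% without the filter) and limma-voom 26.4%.

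**Figure D1:**
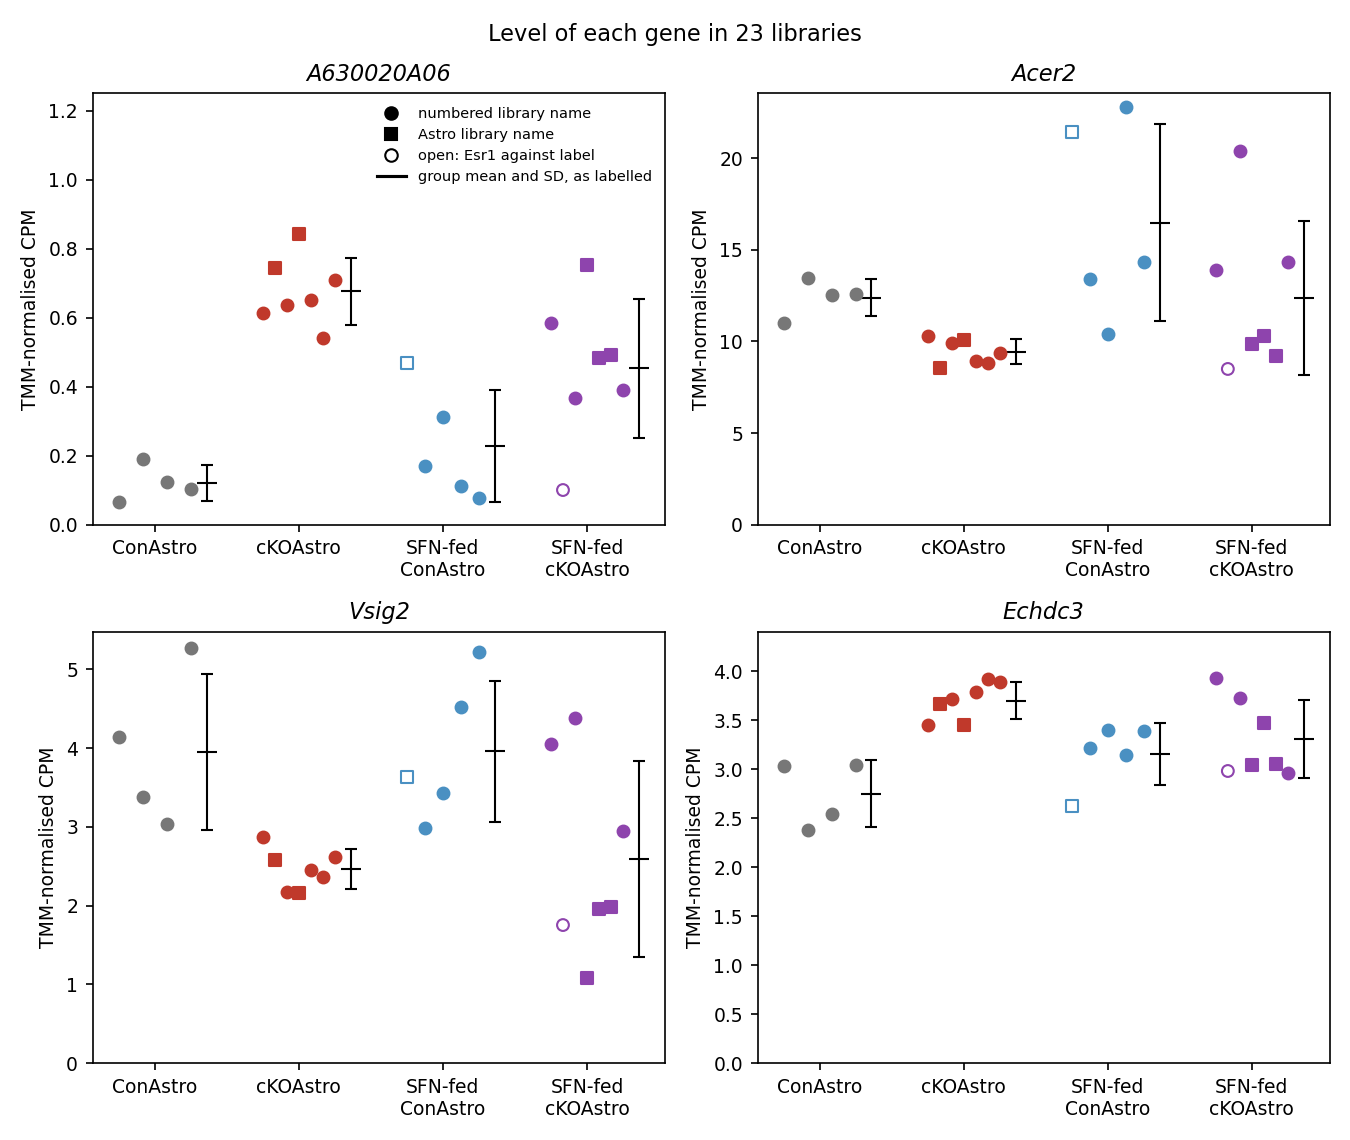
Level of each of the 4 genes (y axis, TMM-normalised CPM) in every library by labelled group (x axis), with squares for Astro library names, open symbols for the 2 libraries whose Esr1 goes against the label, and bars for the mean and SD of each group as labelled. For A630020A06 on the SFN diet the 7 libraries with high Esr1 sit between 0.367 and 0.753 CPM, above the 5 others at 0.0779 to 0.311 CPM, while for the other 3 genes the genotypes overlap on the SFN diet.

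**Figure D2:**
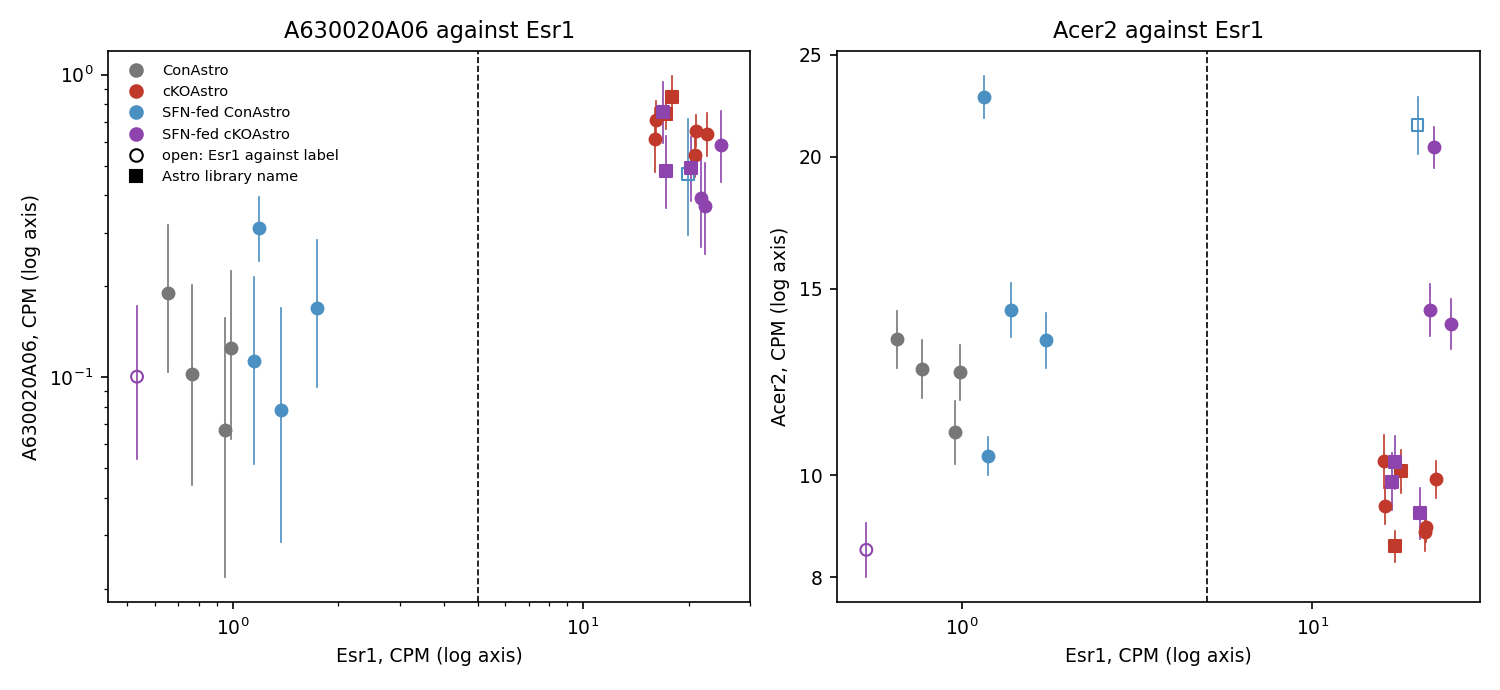
Level of A630020A06 (left) and Acer2 (right) against Esr1, all in CPM on log axes, 1 point per library with its 95% Poisson interval, squares for Astro library names, open symbols for the 2 libraries against their labels and a dashed line at 5 CPM of Esr1. Esr1 lies at 16.0 to 24.8 CPM or at 0.533 to 1.74 CPM, A630020A06 separates with it on the SFN diet as on the control diet that chose the gene, and Acer2 in all 7 SFN-diet libraries with high Esr1 falls inside the range of the 5 others.

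Over the 23 libraries, the gene whose pattern was most like that of A630020A06 among 17302 genes was Esr1 (Pearson r = 0.90 of log2 CPM), followed by Cdca5, which encodes a factor of sister chromatid cohesion (r = 0.78), and the non-coding C330013E15Rik (r = 0.74). These r values describe 23 points that fall into 2 sets by Esr1 and that differ in depth. Of them 11 are the control-diet libraries that chose A630020A06 for its genotype difference, so a high rank of Esr1 follows in part from the choice.

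The neighbours of the 4 genes were examined to show whether the region as a whole moved. AW549877, whose start faces that of A630020A06, stood at 123 ± 13.5 CPM (SD, n = 4) in ConAstro and 107 ± 7.82 CPM (SD, n = 7) in cKOAstro. On the SFN diet without the 2 libraries it was 128 ± 2.77 CPM (SD, n = 4) and 100.3 ± 14.6 CPM (SD, n = 6), a log2 difference of -0.35 ± 0.11 (SE, edgeR adjusted p = 0.310), opposite in sign to A630020A06. Of 25 neighbouring genes tested around the 4 members, 0 passed the threshold and 7 had an unadjusted edgeR p under 0.05. Among all genes tested on the SFN diet without the 2 libraries, these shares were 0.012% and 14.9%. Log2 differences of the 25 ran from -0.44 to 0.74. The 7 included the genes before A630020A06, with AW549877 at -0.35, Fbxo4 at 0.23 and Ghr at -0.31. The genes after it were not among the 7, with BC037032 at -0.38, Oxct1 at -0.05 and Plcxd3 at -0.28. Of these neighbours of A630020A06 only Fbxo4 was above 0, and a shift of the region as a whole was not tested. Whether the counting used the strand is not given in the sources used here.

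Acer2 spans chr4:86874396-86934822 on the plus strand, with 7159 exonic bases in 8 exons. Its promoter window (RefSeq, GRCm38.p6, chr4:86874164-86874463, plus strand) held none of the 4 motifs and is not printed. Per length, Acer2 and Vsig2 had the highest ConAstro levels of the 4 genes, at a mean of 1.73 and 2.00 RPKM (CPM per kilobase of exon), against 1.02 for Echdc3 and 0.0343 for A630020A06.

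On the control diet, Acer2 was lower in the knockout. ConAstro replicates 1 to 4 had 10.98, 13.4, 12.5 and 12.6 CPM, and cKOAstro ranged from 8.56 to 10.3 CPM with a median of 9.35. Every knockout library was below every control, with a log2 difference of -0.40 ± 0.08 (SE), in a comparison where 0.207% of genes were lower without overlap.

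On the SFN diet Acer2 spread more widely in both genotypes. SFN-fed ConAstro replicates 2 to 5 had 13.4, 10.4, 22.8 and 14.3 CPM, and SFN-fed cKOAstro replicates 1, 3, 4, 5, 6 and 7 had 13.9, 20.4, 9.86, 10.3, 9.20 and 14.3 CPM. The groups overlapped, with 3 of 6 knockout libraries below every control, and 1.66% of all genes were lower without overlap. The log2 difference was -0.23 ± 0.26 (SE, 95% interval -0.81 to 0.35, edgeR adjusted p = 0.699), an interval that includes 0. Over all labelled libraries it was -0.42 ± 0.25 (SE, 95% interval -0.95 to 0.12, edgeR adjusted p = 0.344), where 4 of 7 knockout libraries were below every control and 0.366% of genes were lower without overlap. The 2 libraries that went against their labels had 21.4 CPM (labelled SFN-fed ConAstro replicate 1) and 8.50 CPM (labelled SFN-fed cKOAstro replicate 2), so the one with high Esr1 was the higher. All 7 SFN-diet libraries with high Esr1 fell inside the range of the 5 with low Esr1.

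Vsig2 spans chr9:37539255-37544205 on the plus strand, with 1979 exonic bases in 7 exons, and lies 0.287 kb from Nrgn and 0.936 kb from Esam, an endothelial adhesion gene. On the control diet it was 4.14, 3.38, 3.04 and 5.26 CPM in ConAstro replicates 1 to 4. The 7 cKOAstro libraries ranged from 2.16 to 2.87 CPM, with a median of 2.45. All were below every control, as were 0.207% of genes tested, with a log2 difference of -0.69 ± 0.15 (SE).

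On the SFN diet Vsig2 overlapped. SFN-fed ConAstro replicates 2 to 5 had 2.99, 3.44, 4.52 and 5.22 CPM. SFN-fed cKOAstro replicates 1, 3, 4, 5, 6 and 7 had 4.05, 4.39, 1.08, 1.95, 1.99 and 2.95 CPM, and 4 of 6 were below every control, where 1.66% of genes were lower in all 6. The log2 difference was -0.57 ± 0.35 (SE, 95% interval -1.35 to 0.21, edgeR adjusted p = 0.438), an interval that includes 0. Over all labelled libraries it was -0.62 ± 0.31 (SE, 95% interval -1.29 to 0.05, edgeR adjusted p = 0.273). Of the 2 libraries against their labels, SFN-fed ConAstro replicate 1 had 3.63 CPM, inside the range of the other SFN-fed controls, and SFN-fed cKOAstro replicate 2 had 1.75 CPM, the lowest of all libraries with low Esr1. Among the 7 SFN-diet libraries with high Esr1, 6 fell inside the range of the 5 others.

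Among the 6 SFN-fed cKOAstro libraries whose Esr1 went with the label, Vsig2 and Acer2 were lower in those named Astro. For Vsig2 these 3 had 1.08 to 1.99 CPM and the 3 numbered ones 2.95 to 4.39 CPM. For Acer2 they had 9.20 to 10.3 CPM and the numbered ones 13.9 to 20.4 CPM. The numbered library left out here, SFN-fed cKOAstro replicate 2, was as low as the Astro-named ones, at 1.75 CPM of Vsig2 and 8.50 CPM of Acer2. The library labelled SFN-fed ConAstro replicate 1, also left out, was named Astro and had high Esr1. It was not low, at 3.63 CPM of Vsig2 and 21.4 CPM of Acer2. With numbered libraries alone the log2 differences were -0.10 ± 0.23 (SE, edgeR adjusted p = 0.868) for Vsig2 and 0.08 ± 0.26 (SE) for Acer2, in 4 control and 3 knockout libraries. A630020A06 was 1.32 ± 0.47 (SE, edgeR adjusted p = 0.576) in the same libraries. Their name series still differed by genotype, with 2 controls in 145 and 2 in 147, and 2 knockouts in 143 and 1 in 147. In these controls the means in 145 and 147 were 3.21 and 4.87 CPM for Vsig2, 11.9 and 18.6 CPM for Acer2, and 0.240 and 0.0953 CPM for A630020A06. Name series and genotype therefore cannot be fully told apart in the numbered libraries. In the cKOAstro group the Astro and numbered libraries overlapped for both genes, at 2.16 to 2.58 and 2.17 to 2.87 CPM for Vsig2 and at 8.56 to 10.1 and 8.83 to 10.3 CPM for Acer2.

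Markers of several cell types differed between the same libraries. The summed level of the 9 endothelial markers was 178 to 229 CPM in the 3 Astro-named SFN-fed cKOAstro libraries, 298 to 799 CPM in the 3 numbered ones and 498 to 793 CPM in the 4 SFN-fed ConAstro libraries. None of the 9 was at 0, and 0 of 9 had a log2 difference above 0 on the SFN diet without the 2 libraries (median -0.80 against 0.0057 over all genes tested, 0 of 9 called by edgeR). On the control diet the sums were 234 to 615 CPM in ConAstro and 226 to 331 CPM in cKOAstro. Of the libraries against their labels, the Astro-named SFN-fed ConAstro replicate 1 summed to 508 CPM and the numbered SFN-fed cKOAstro replicate 2 to 280 CPM. Microglia markers also stood apart, with sums of 325 to 574 CPM in the 3 Astro-named libraries, 1050 to 3494 CPM in the 3 numbered ones and 964 to 2568 CPM in the 4 controls. Oligodendrocyte markers were higher in the Astro-named libraries, at 33639 to 57490 CPM against 24642 to 29037 and 22226 to 30516 CPM. Sums of astrocyte markers, the sorted cell type, reached lower in the Astro-named libraries, at 13464 to 18384 CPM. They were 17988 to 24117 CPM in the numbered ones and 18256 to 24742 CPM in the controls, with a small overlap. Of the 10 astrocyte markers, 5 had a log2 difference above 0 in the comparison without the 2 libraries. Sums of mural markers (756 to 1238 CPM) and fibroblast markers (79.2 to 137 CPM) reached lower in the Astro-named libraries than in the numbered ones (1211 to 1809 and 131 to 178 CPM), with some overlap. The part of any of these cell types in the Acer2 and Vsig2 values was not tested.

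**Figure D3:**
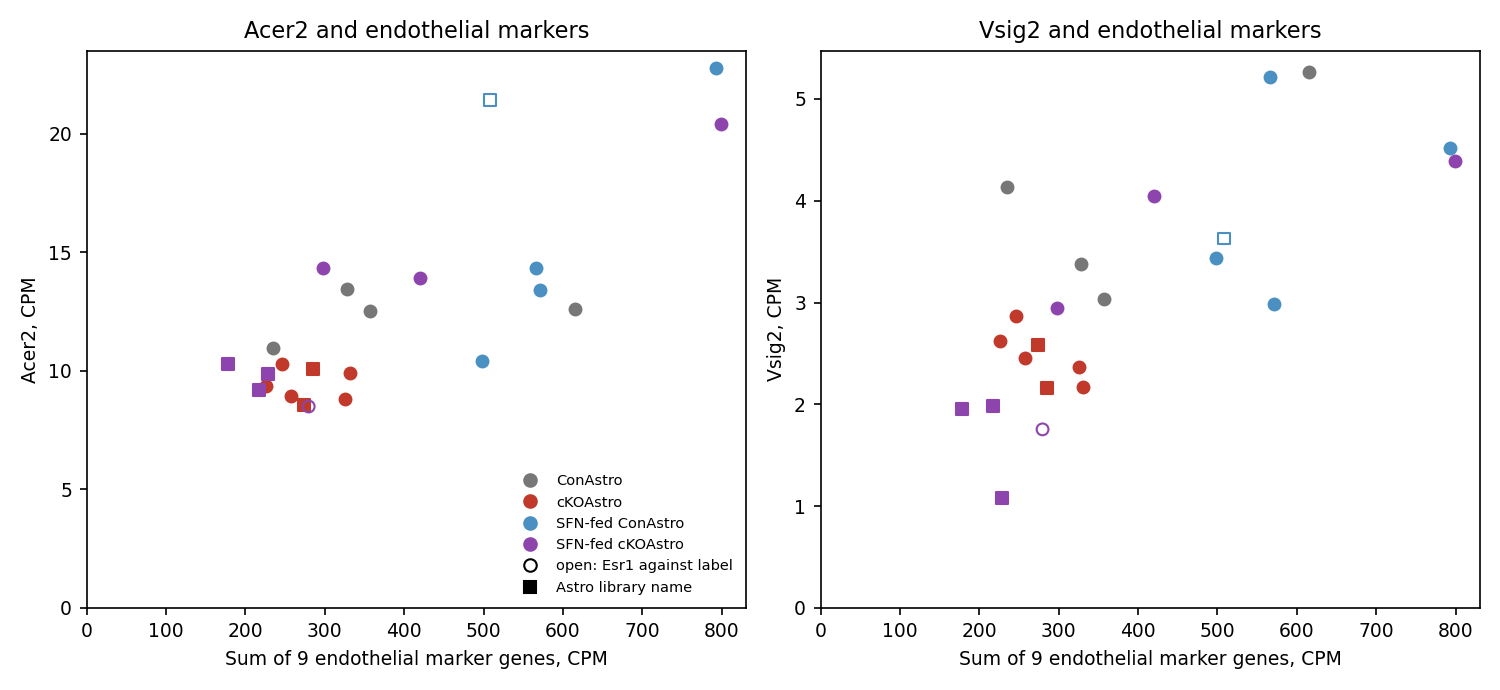
Level of Acer2 (left) and Vsig2 (right, y axes in CPM) against the summed level of 9 endothelial markers (x axes, CPM), 1 point per library, with squares for Astro library names and open symbols for the 2 libraries against their labels. The 3 Astro-named SFN-fed cKOAstro libraries lie at 178 to 229 CPM of markers with Vsig2 at 1.08 to 1.99 CPM, and SFN-fed cKOAstro replicate 3 lies at 799 CPM with 4.39 CPM. ConAstro replicate 1 has a low marker sum of 234 CPM but 4.14 CPM of Vsig2. The cKOAstro libraries lie at 226 to 331 CPM of markers with Vsig2 at 2.16 to 2.87 CPM.

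The genes most like Acer2 over the 23 libraries were Arhgef3 (r = 0.88), Abcg2, an efflux transporter gene of brain vessels (r = 0.87), and Ctla2a (r = 0.85). Those most like Vsig2 were Mfsd7c (r = 0.86), Rnf144b (r = 0.85) and Gimap6 (r = 0.85). Acer2 and Vsig2 had r = 0.65 with each other.

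Echdc3 spans chr2:6188465-6213033 on the minus strand, with 2685 exonic bases in 5 exons, and overlaps A230108P19Rik on the other strand. Its promoter window (RefSeq, GRCm38.p6, chr2:6212945-6213244, minus strand) is shown because, of the 3 member windows searched, it was the only one with the estrogen receptor half-site or the NRF2 core. Capitals mark both matches on the other strand, the half-site at -186 and the NRF2 core at 4 from the start.
Echdc3: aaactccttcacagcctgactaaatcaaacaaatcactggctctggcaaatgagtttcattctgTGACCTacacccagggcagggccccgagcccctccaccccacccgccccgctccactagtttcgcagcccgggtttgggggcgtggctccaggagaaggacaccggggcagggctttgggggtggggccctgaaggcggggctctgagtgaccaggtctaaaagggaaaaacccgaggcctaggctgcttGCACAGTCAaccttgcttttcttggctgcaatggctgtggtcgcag

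On the control diet, Echdc3 was slightly higher in the knockout. ConAstro replicates 1 to 4 had 3.03, 2.37, 2.55 and 3.04 CPM, and cKOAstro ranged from 3.45 to 3.92 CPM with a median of 3.72. Every knockout library was above every control, with a log2 difference of 0.42 ± 0.11 (SE), in a comparison where 0.287% of genes were higher without overlap.

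On the SFN diet Echdc3 did not separate the genotypes. SFN-fed ConAstro replicates 2 to 5 had 3.22, 3.40, 3.14 and 3.39 CPM, and SFN-fed cKOAstro replicates 1, 3, 4, 5, 6 and 7 had 3.93, 3.73, 3.04, 3.47, 3.05 and 2.96 CPM. Of the 6 knockout libraries, 3 were above every control and 3 below every control. The log2 difference was 0.03 ± 0.13 (SE, 95% interval -0.25 to 0.32, edgeR adjusted p = 0.924), and the upper bound was 0.44 with numbered libraries alone. Over all labelled libraries it was 0.06 ± 0.12 (SE, 95% interval -0.19 to 0.32, edgeR adjusted p = 0.777). The difference between the diets was not tested, because the control-diet libraries chose the gene. The 2 libraries against their labels, SFN-fed ConAstro replicate 1 and SFN-fed cKOAstro replicate 2, had 2.63 and 2.98 CPM, and 2 of the 7 SFN-diet libraries with high Esr1 fell inside the range of the 5 others. The most similar genes were Pamr1 (r = 0.72), Ece2 (r = 0.70) and the row named Mir670 (r = 0.70).

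**Figure D4:**
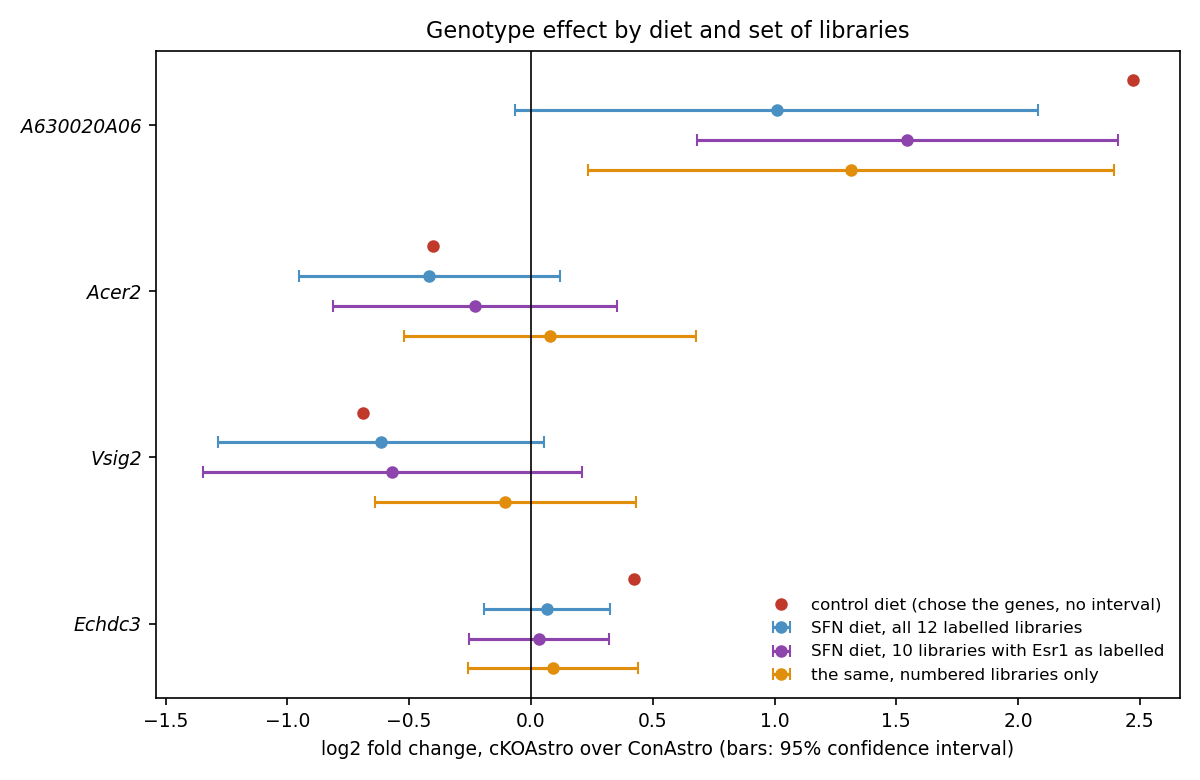
Log2 fold change of cKOAstro over ConAstro (x axis) for each gene on the control diet, drawn without an interval because these values chose the genes, and with 95% intervals on the SFN diet with all 12 labelled libraries, with the 10 whose Esr1 goes with the label, and with the numbered ones of those. A630020A06 is at 2.47 on the control diet and at 1.01, 1.55 and 1.32 on the SFN diet, whereas Echdc3 is at 0.42 and then at 0.06, 0.03 and 0.09.

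Within each genotype, the comparison of diets uses the libraries that chose the genes, so its values are descriptive. In ConAstro the log2 difference for SFN was 0.88 for A630020A06, 0.40 for Acer2, 0.19 for Echdc3 and -0.00 for Vsig2, and leaving out SFN-fed ConAstro replicate 1 gave 0.53, 0.29, 0.25 and 0.02. In cKOAstro the values, in the same order, were -0.58, 0.39, -0.16 and 0.07, and leaving out SFN-fed cKOAstro replicate 2 gave -0.40, 0.46, -0.14 and 0.15. The SE of the Acer2 difference was 0.22 in ConAstro and 0.17 in cKOAstro. For A630020A06 the signs were opposite in the 2 genotypes, a difference that was not tested.

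The wider pathways gave no calls on the SFN diet without the 2 libraries, where edgeR called 0.012% of 16705 genes (Esr1 at a log2 difference of 3.92 and Aldh7a1 at -2.05, with Slc1a3 at -1.14 and an edgeR adjusted p of 0.144). The Esr1 call follows from leaving out libraries by their Esr1, and with all labelled libraries its log2 difference was 1.82 (edgeR adjusted p = 0.268). Aldh7a1 also went against the label in the 2 libraries left out. With all labelled libraries it was at -1.25 and not called (edgeR adjusted p = 0.195). Of 30 enzymes of ceramide and sphingosine metabolism, 28 could be tested and 0 passed, with 12 above 0 and a median log2 difference of -0.03. The lowest p was for Smpd2, a neutral sphingomyelinase gene that yields ceramide (0.27 ± 0.09 SE, edgeR adjusted p = 0.310). Of 18 tested immunoglobulin-domain relatives of Vsig2, 0 passed and 4 were above 0, with a median of -0.25 and the lowest p for Hepacam2 (-0.83 ± 0.29 SE, edgeR adjusted p = 0.310). Of 19 tested genes of the enoyl-CoA hydratase family and the fatty acid oxidation enzymes around it, 0 passed and 16 were above 0, with a median of 0.17 beside 50.9% of all genes above 0. The lowest p there was for Echdc2, a relative of Echdc3 (0.45 ± 0.12 SE, edgeR adjusted p = 0.310), and in the same libraries 10 of 10 oligodendrocyte markers were above 0 with a median of 0.28. Over all labelled libraries 0 genes of the 3 lists passed and the counts above 0 were again 12, 4 and 16. There edgeR called 0 of 16672 genes, 20.3% of which had an unadjusted p under 0.05, while DESeq2 called 341.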

How the data were processed

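RNA was sequenced from sorted cortical astrocytes of 23 mice. The authors aligned reads to mm10 with STAR after FastQC and deposited unnormalised counts, with gene symbols as rows and libraries as columns. The STAR version, the gene annotation and the strand setting are not given in the sources used here. Groups were taken from the labels, and the members and gene lists were chosen with earlier results of these data known. Genes were filtered with filterByExpr (minimum count 10, minimum total 15), scaled by TMM and tested with the edgeR quasi-likelihood test (edgeR 4.0.16, R 4.3.3), Benjamini-Hochberg over all genes tested, threshold 0.05. CPM used library totals multiplied by TMM factors over the 23 libraries, and log2 CPM a prior count of 2. Named genes were the 4 members, Esr1, Aldh7a1, Slc1a3, the lowest-p gene of each list and the 3 genes of highest Pearson r per member. Other neighbours and genes were named after their values were seen. Alternatives used DESeq2 1.42.0, limma 3.58.1, other scaling and filters, thinning to 46890715 counts, name series, replicate number and leaving out libraries. A630020A06 was found in GENCODE M21 as Gm2093 through a RefSeq synonym. Poisson intervals cover counting error only. Litters and sort days are not stated. The p-values treat each library as independent, so differences between litters or sort days cannot be separated from those between mice or genotypes. The scripts were tested on simulated data. No promoter window for Vsig2 was used here.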

Additional observations from a re-analysis of the deposited data

How the results depend on the processing

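Of 167 member differences recomputed on the SFN diet with an adjusted p, 159 kept their direction and their side of the threshold. A further 5 from DESeq2 kept their direction but had no adjusted p. No member passed the threshold in either main fit, so keeping its side means only that a difference stayed uncalled. The fit without the 2 libraries was also counted as an alternative to the fit with all labelled libraries. The exceptions without the 2 libraries were A630020A06 at 1.54 in DESeq2 without a filter (DESeq2 adjusted p = 0.0352, chosen after seeing the data), Acer2 at 0.0769 with numbered libraries, 0.0884 with the name series as a covariate and 0.0358 without SFN-fed ConAstro replicate 4 (leaving out 1 library, -0.41 to 0.0358), and Echdc3 at -0.0242 in limma-voom and -0.0146 without SFN-fed cKOAstro replicate 1 (leaving out 1 library, -0.0146 to 0.0640). With all labelled libraries they were Echdc3 at -0.0348 and Vsig2 at -0.88 (limma adjusted p = 0.0168), both in limma-voom. When 1 library was left out, A630020A06 ranged from 0.79 to 1.37 and Vsig2 from -0.79 to -0.49 with all labelled libraries. Without the 2 libraries these ranges were 1.33 to 2.08 and -0.76 to -0.41. The cause was not tested.

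The number of genes called moved more. With all labelled libraries edgeR called 0, DESeq2 341 (253 without a filter), limma-voom 4398, the fit of all 4 groups 3, the fit without the 2 libraries 2, and leaving out 1 library 0 to 701, the latter without SFN-fed cKOAstro replicate 3. Without the 2 libraries edgeR called 2, DESeq2 95 (95 without a filter) and leaving out 1 library 2 to 3. On the control diet edgeR called 4, DESeq2 8, and leaving out 1 library gave 2 to 4, with 2 without ConAstro replicate 4. For SFN in ConAstro it called 0, and 0 to 1 with 1 library left out, the 1 without ConAstro replicate 4.

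Replicate numbers did not pair the SFN-fed libraries, whose same-number correlations ran from -0.08 to 0.26. With the replicate number as a block, A630020A06 was 1.76 without the 2 libraries (edgeR adjusted p = 0.672) and 0.97 with all labelled libraries (edgeR adjusted p = 0.358), and the calls were 0 without the 2 libraries and 1 on the control diet.

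At 5 to 14 counts per ConAstro library, counting error limits A630020A06, whose control-diet log2 difference was 2.94 after thinning to equal depth.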
